A study of Homo sapiens with 18 samples.

Results

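Raji cells harvested at 24 h were compared with Raji cells harvested at 12 h, an interval in which many interferon-stimulated genes rose. Raji, an established human line, was derived from B cells of a Burkitt lymphoma and carries Epstein-Barr virus. All 18 arrays of the series, including those of 0 h, came from cells induced with sodium n-butyrate (3 mM) and a phorbol ester (0.05 µM) and given maslinic acid (19 µM). Butyrate is a histone deacetylase inhibitor, the phorbol ester is an activator of protein kinase C, and together they are used to induce latent virus in lines that carry it. Whether and how far the virus was induced in these cells was not examined here. The third compound, maslinic acid, is a triterpene found in plants. The comparison uses 6 of the 18 arrays, 3 of 12 h and 3 of 24 h, which the labels call biological replicates. It covers all 18417 human genes with a probe set that names 1 gene, each represented by its probe set of highest mean over all arrays. Cells without maslinic acid or without the inducers, and untreated cells of the same times, were not analysed here, so the compounds and time in culture cannot be told apart. Values are log2 intensities as deposited, and differences are 24 h minus 12 h with the standard error (SE) of a limma model. A gene was called, that is, said to have risen or fallen, at a Benjamini-Hochberg adjusted p under 0.05 in limma's moderated two-sided test.

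Interferons are secreted proteins that cells release on sensing foreign or misplaced nucleic acid. They bind receptors linked to Janus kinases, and the signal ends in a transcription factor complex that contains IRF9 and binds a short element in the promoters of target genes. Those targets include RNA sensors, proteins that block viral replication, ubiquitin-like modifiers, enzymes of antigen processing and chemokines that attract lymphocytes. In B cells the same pathway also acts on genes of antigen presentation and survival.

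The core of that element is GAAA, any 2 bases, and GAAA again, read on either strand, and it stood in the 250 bases before the annotated start of 21 of the 44 interferon-stimulated genes that rose and had a promoter sequence (47.7%). It was present in 25 of the 66 listed interferon-stimulated genes that were not called (37.9%) and in 366 of all 14237 measured genes with a promoter sequence (2.57%). Of the 81 genes outside the interferon lists that rose, 3 held it (3.7%), namely BCL2A1, GCA and VCAM1, and so did 1 of the 84 genes that fell (1.19%). A match describes these letters and is not evidence of a bound site. Promoter stretches are shown for 6 genes, those with the largest rises among the genes that hold the element, because they let it be seen beside the values below. RIGI and XAF1, which rose more than DDX60, have no match in the window used. IFIT2 (4.96) rose more as well and is not among the 21 genes. The stretches are from RefSeq on GRCh38.p14, written 5′ to 3′ on the strand of the gene, with each match in capitals. IFIT1 lies at chr10:89392487-89392549 (+ strand), CXCL10 at chr4:76023689-76023738 (- strand), IFI44L at chr1:78620264-78620404 (+ strand), IFI44 at chr1:78649751-78649788 (+ strand), IFIT3 at chr10:89327821-89327904 (+ strand) and DDX60 at chr4:168318776-168318860 (- strand). IFIT1, IFI44L, IFIT3 and DDX60 each hold 2 matches in the stretch shown, and CXCL10 and IFI44 hold 1.
IFIT1: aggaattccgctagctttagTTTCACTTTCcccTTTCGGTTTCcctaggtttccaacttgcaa
CXCL10: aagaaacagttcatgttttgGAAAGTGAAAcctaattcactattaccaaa
IFI44L: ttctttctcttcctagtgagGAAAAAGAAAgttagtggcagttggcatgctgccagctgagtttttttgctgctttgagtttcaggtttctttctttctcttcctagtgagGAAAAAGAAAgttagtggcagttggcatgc
IFI44: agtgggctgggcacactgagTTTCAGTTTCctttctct
IFIT3: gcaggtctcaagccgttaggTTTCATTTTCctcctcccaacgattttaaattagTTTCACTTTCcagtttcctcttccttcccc
DDX60: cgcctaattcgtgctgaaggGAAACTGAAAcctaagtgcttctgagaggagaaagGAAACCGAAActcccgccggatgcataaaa

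The 18 array medians lay between 4.03 and 4.25, and no pair of arrays held identical values. The precision of array values is limited by the number of arrays. In the lysate of a whole culture, fewer cells with a transcript and less of it per cell cannot be told apart. Of the 7 measured Raji markers, 2 B-cell genes are given as examples, and both lay above the array medians. MS4A1 (CD20) was at 8.33 to 9.06 on the 12 h arrays and 8.73 to 9.53 on those of 24 h. CD22 was at 6.95 to 7.46 and 6.98 to 7.66. The 7 measured Raji markers held 0 calls in this interval, with 5 positive and 2 negative differences. Their mean level was lower than that of these 2 genes at 12 h, at 6.22 to 6.48, and was 6.28 to 6.9 at 24 h. It had been 7.44 to 7.52 on the 0 h arrays. Replicate 3 of 24 h stood apart within its group for interferon genes. It was the lowest of the 3 arrays of 24 h in 54 of the 56 interferon genes that rose (96.4%), against 43.8% of all genes. Calls gained without that array are therefore given for the lists named, as counts or with some of the genes.

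Between 12 h and 24 h, 252 of 18417 genes were called (1.37%), of which 150 rose (0.814% of the genes tested) and 102 fell (0.554%). At an unadjusted p under 0.05 there were 2039 of the 18417 genes, 1030 higher and 1009 lower. The counts of the lists at that threshold, given below, are to be read beside these. In 250 of the 252 called genes the 3 arrays of one time lay wholly on 1 side of the other 3, a separation also seen in 3623 of all genes (19.7%). The exceptions, whose arrays overlapped, were APOL1 and SP140L. A change of at least 2-fold was found for 120 of the rises and 66 of the falls. Of 150 measured interferon-stimulated genes from a list of 166, 56 rose (37.3%) and 0 fell in limma's test, and at an unadjusted p under 0.05 the counts were 94 and 1. Their median difference was 0.92, against -0.04 over all genes. Among the other 18267 genes, 94 rose (0.515%) and 102 fell (0.558%). All 18 genes that rose at least 8-fold were on the interferon lists. Without replicate 3 of 24 h, 335 genes were called, with 75 interferon genes, 177 other rises and 83 falls. All 56 of the interferon calls were kept, but only 76 of the 94 other rises and 66 of the 102 falls. Leaving out any other array gave 105 to 153 calls, with 30 to 36 interferon genes, 34 to 58 other rises and 41 to 73 falls.

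**Figure D1:**
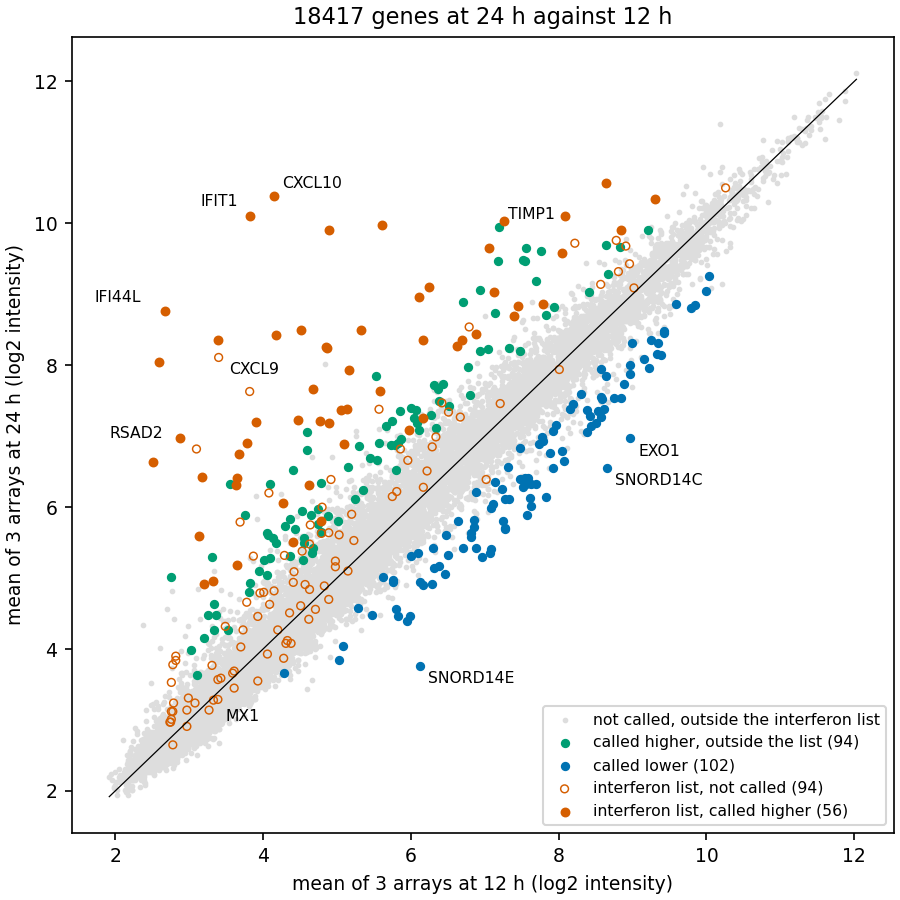
Mean log2 intensity of 3 arrays at 24 h (vertical axis) against 12 h (horizontal axis) for 18417 genes, with the line of equal values. The interferon genes that rose (filled orange, 56) reach farthest above the line, up to 6.27 for IFIT1. The 94 other rises (green) and the 102 falls (blue) lie nearer to it, and open orange points mark the 94 interferon genes that were not called.

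IFIT1, CXCL10, IFI44L and IFI44 had the largest rises of all genes. IFIT1, whose protein binds foreign RNA lacking the host cap methylation, measured 3.61, 3.84 and 4.04 on the 12 h arrays and 10.70, 10.71 and 8.90 on the 24 h arrays. It was 77.4-fold higher at 24 h, a difference of 6.27 (SE 0.40, limma adjusted p = 1.87e-07). CXCL10, a chemokine that draws activated T cells through the receptor CXCR3, measured 4.23, 4.03 and 4.21 at 12 h and 11.09, 10.91 and 9.15 at 24 h, a rise of 6.23 (SE 0.61, adjusted p = 1.8e-05). For both genes every 24 h array lay far above every 12 h array, and replicate 3 was the lowest of its group. CXCL10 was the one of the pair that had been higher earlier, at 6.15 ± 1.26 (SD, n = 3) at 0 h, 6.26 ± 0.81 at 4 h and 4.31 ± 0.45 at 8 h. IFI44L, an interferon-induced gene of limited known function, measured 2.60, 2.76 and 2.69 and then 9.57, 9.62 and 7.13. Its neighbour IFI44 measured 2.44, 2.73 and 2.60 and then 8.67, 8.82 and 6.67. Their 12 h means lay under the lower quartile of the 12 h arrays, 2.997 on the lowest, where background can hide a lower level, so the rises were at least 6.09 (SE 0.43, adjusted p = 3.49e-07) and at least 5.46 (SE 0.41, adjusted p = 5.71e-07).

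Of the 48 measured antiviral effectors, 22 rose and 0 fell, with a median difference of 1.05 (30 and 1 at an unadjusted p under 0.05). The count of rises was 27 without replicate 3 of 24 h. Among those gained were OASL (3.07, limma adjusted p = 0.000648) and TMEM140 (2.06, 0.00403). IFIT3 and IFIT2, partners of IFIT1 in RNA binding, rose by 5.02 (SE 0.35) and 4.96 (SE 0.68), with limma adjusted p-values of 3.49e-07 and 0.000705. IFIT2 reached 9.48 and 9.39 on replicates 1 and 2 of 24 h but 6.19 on replicate 3, from 3.08 to 3.57 at 12 h. XAF1, which opposes an inhibitor of apoptosis, rose by 4.25. DDX60, a helicase that aids RNA sensing, rose by at least 4.13, from 2.42 to 2.61 at 12 h to 7.16, 7.74 and 5.03. RSAD2 (viperin), which makes a chain-terminating nucleotide, rose by at least 4.10 (SE 0.75, adjusted p = 0.00731) on uneven arrays of 8.15, 8.37 and 4.42. The call of RSAD2 was lost without replicate 1 or 2 of 24 h (adjusted p = 0.0628 and 0.051).

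OAS2 and OAS1, which make the signal molecule that activates an RNA-degrading enzyme, rose by 3.41 (SE 0.41) and 2.79 (SE 0.37). EPSTI1 rose by 3.30, the scramblase PLSCR1 by 3.07, IFIT5 by 2.76, IFI6 by 2.45 and the virion tether BST2 by 1.80. MX2, a dynamin-like GTPase that blocks retroviral and herpesvirus capsids, measured 3.12, 3.60 and 2.81 and then 7.77, 7.42 and 4.08, a rise of 3.25 (SE 0.70, adjusted p = 0.0253). Its relative MX1 overlapped between the times, at 3.28, 3.50 and 3.21 and then 3.45, 3.20 and 3.19 (difference -0.05, adjusted p = 0.946). OAS3 (0.18), CMPK2 (-0.21), IFITM3 (0.16), ISG20 (0.21), HELZ2 (0.10) and LY6E (-0.21) were likewise not called and had overlapping arrays. The restriction factors SAMD9L (3.16) and SAMD9 (1.93), LAMP3 (1.79), RTP4 (1.72), the RNA editing enzyme ADAR (1.30) and PNPT1 (1.04) completed the 22. The calls of MX2, SAMD9, LAMP3, RTP4 and ADAR were lost without any 1 of the 12 h arrays or of replicates 1 and 2 of 24 h (adjusted p from 0.0545 to 0.275). That of SAMD9L was lost without replicate 2 of 12 h or replicate 1 or 2 of 24 h (0.0598 to 0.0688), and that of PNPT1 without replicate 2 or 3 of 12 h or replicate 1 or 2 of 24 h (0.0528 to 0.0658).

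Among 18 sensors and signal transducers, 9 rose and 0 fell, with a median of 1.07 (14 and 0 at an unadjusted p under 0.05). With replicate 3 of 24 h left out 12 rose, and NMI (2.71, limma adjusted p = 0.0279), AIM2 (1.23, 0.0431) and PML (0.99, 0.0226) were gained. RIGI, the cytosolic sensor of viral RNA, measured 6.02, 5.08 and 5.73 at 12 h and 10.61, 10.41 and 8.93 at 24 h, a rise of 4.37 (SE 0.52, limma adjusted p = 0.000188). IFIH1 (MDA5), the sensor of long double-stranded RNA, rose by 2.02 (SE 0.31) from 8.04 to 8.12 to values of 10.46, 10.41 and 9.47. SP100, a nuclear body protein, rose by 1.90, the translation-blocking kinase EIF2AK2 by 1.53 and the DNA sensor IFI16 by 1.06. IRF1, a transcription factor of the response, measured 4.26, 4.65 and 4.52 and then 8.59, 7.81 and 5.29, a rise of 2.75 (SE 0.56, adjusted p = 0.0164). IRF9, the DNA-binding part of the interferon-activated complex, rose by 1.01 (SE 0.22, adjusted p = 0.023), and here replicate 3 of 24 h was not the lowest, at 5.80 beside 6.14 and 5.45. The endosomal sensor TLR3 rose by 1.63 and the adaptor MYD88 by 1.09. IRF7, which drives interferon alpha genes, had overlapping arrays at 4.57 to 4.89 and 4.28 to 4.72 (-0.15), and so did DHX58 (0.08), ZBP1 (0.53) and BATF2 (0.26). The calls of IRF1, TLR3 and MYD88 were lost without any 1 of the 12 h arrays or of replicates 1 and 2 of 24 h (adjusted p from 0.0505 to 0.218), and that of IRF9 without any 12 h array or replicate 1 of 24 h (0.06 to 0.159).

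**Figure D2:**
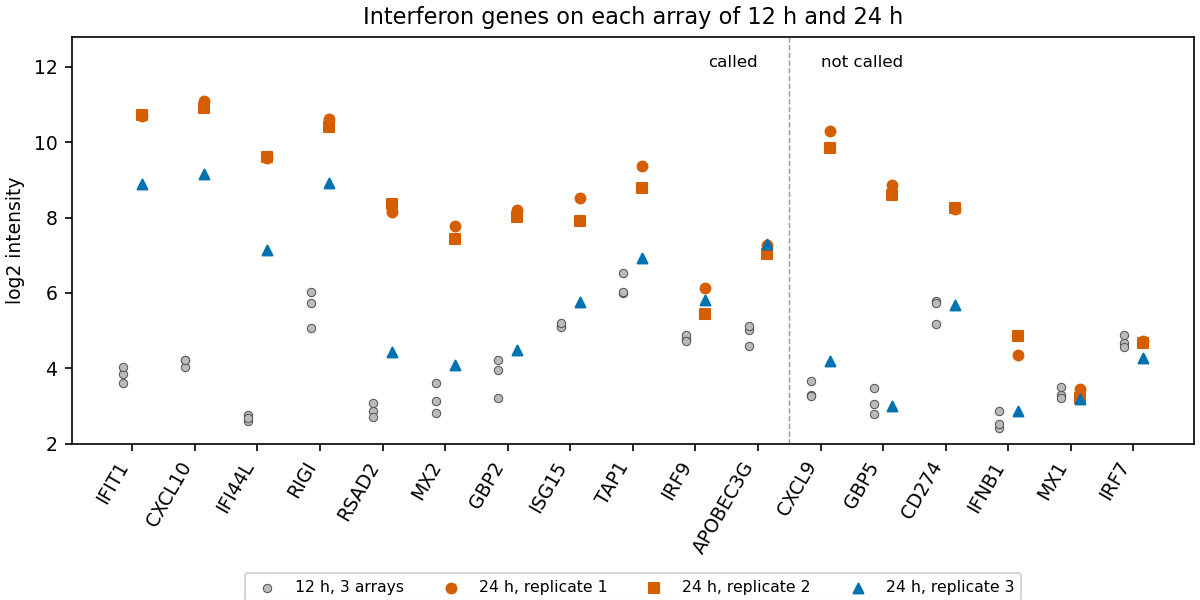
Log2 intensity on each of the 3 arrays of 12 h (grey) and 24 h (orange for replicates 1 and 2, blue triangles for replicate 3) for 17 interferon-pathway genes, 11 that rose to the left of the dashed line and 6 that were not called to the right. For IFIT1, CXCL10 and RIGI the blue triangle sits well above the 12 h arrays, whereas for GBP5, CD274 and IFNB1 it lies among or next to them, and the groups overlap for MX1 and IRF7.

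Of 18 genes of ubiquitin-like modification and feedback, 7 rose and 0 fell, with a median of 0.84 (11 and 0 at an unadjusted p under 0.05). With replicate 3 of 24 h left out 8 rose, and TRIM38 was gained (1.12, limma adjusted p = 0.0279). ISG15, the ubiquitin-like protein coupled to many targets during the response, measured 5.12, 5.09 and 5.20 and then 8.52, 7.90 and 5.76, a rise of 2.26 (SE 0.49, limma adjusted p = 0.0254). UBE2L6, its conjugating enzyme, rose by 1.66, while the ligase HERC5 (0.45, from 2.73 to 2.84 at 12 h), the activating enzyme UBA7 (0.07) and the deconjugating enzyme USP18 (0.47) were not called. The ubiquitin ligases TRIM22 (2.99), RNF213 (2.84), TRIM21 (1.69), TRIM5 (1.65) and TRIM25 (1.07) rose. The feedback inhibitors SOCS1 (0.34) and SOCS3 (-0.22) overlapped between the times. The call of ISG15 was lost without any 1 of the 12 h arrays or of replicates 1 and 2 of 24 h (adjusted p from 0.0857 to 0.169), that of TRIM21 without replicate 1 of 12 h or of 24 h (0.0601 and 0.0719), and that of TRIM25 without replicate 1 or 3 of 12 h or replicate 1 of 24 h (0.0571 to 0.116).

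Of the PARP family and its partner, 3 of 7 rose and 0 fell (median 0.61, and 5 and 0 at an unadjusted p under 0.05). PARP9, its partner ligase DTX3L and PARP14 rose by 3.38 (SE 0.28), 2.76 (SE 0.37) and 2.44 (SE 0.39). Of 6 APOBEC3 cytidine deaminases, which mutate viral DNA, APOBEC3B (2.86), APOBEC3F (2.31) and APOBEC3G (2.29) rose and 0 fell (median 1.62, and 5 and 0 at an unadjusted p under 0.05). APOBEC3G was the most even of them, at 5.01, 4.58 and 5.12 and then 7.27, 7.02 and 7.29. Members of this family are close in sequence, so probes may read more than 1 of them, and a second probe set of APOBEC3F differed by 1.59. Among 6 Schlafen genes SLFN5 rose by 2.59 (SE 0.55, limma adjusted p = 0.0212), a call lost without replicate 2 of 12 h or replicate 1 or 2 of 24 h (0.108 to 0.145).

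Of 6 guanylate-binding proteins, GTPases that attack the membranes around intracellular pathogens, GBP2 alone was called, and the family median was 1.22 (3 at an unadjusted p under 0.05). GBP2 measured 3.96, 3.20 and 4.22 and then 8.19, 8.01 and 4.49, a rise of 3.11 (SE 0.68, limma adjusted p = 0.0274). GBP5 split by array, at 3.05, 2.78 and 3.47 at 12 h and 8.87, 8.59 and 3.00 at 24 h, so that its difference of 3.72 had an SE of 1.25 (adjusted p = 0.209). Without replicate 3 of 24 h GBP5 differed by 5.63 (adjusted p = 0.00501) and GBP3 by 1.95 (0.0017), and 3 of the 6 were called. The call of GBP2 was lost without any 1 of the 12 h arrays or of replicates 1 and 2 of 24 h (adjusted p from 0.066 to 0.179).

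Class I antigen processing, by which cytosolic peptides reach the cell surface, had 4 rises and 0 falls among 14 genes, with a median of 0.71 (10 and 0 at an unadjusted p under 0.05). With replicate 3 of 24 h left out 5 rose, and TAP2 was gained (1.50, limma adjusted p = 0.0133). TAP1, a chain of the peptide transporter, measured 5.99, 6.52 and 6.01 and then 9.38, 8.78 and 6.92, a rise of 2.19 (SE 0.44, limma adjusted p = 0.0141). The immunoproteasome subunits PSMB8 and PSMB9 rose by 2.06 and 1.56, and the aminopeptidase LAP3 by 1.39. B2M, the light chain of class I molecules, differed by 0.77 (adjusted p = 0.195) without overlap, from 8.63 to 9.07 at 12 h to 9.39 to 9.90 at 24 h. The call of PSMB9 was lost without any 1 of the 12 h arrays or of replicates 1 and 2 of 24 h (adjusted p from 0.0908 to 0.198). TAP1 lost it without replicate 1 or 3 of 12 h or replicate 1 or 2 of 24 h (0.0743 to 0.101), PSMB8 without replicate 1 or 2 of either time (0.0505 to 0.0833) and LAP3 without replicate 2 of 12 h or replicate 1 or 2 of 24 h (0.0636 to 0.0807).

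Among 27 chemokines and surface or other response proteins, 6 rose and 0 fell, with a median of 0.84 (14 and 0 at an unadjusted p under 0.05). Besides CXCL10, TNFSF10 (TRAIL), a death ligand, measured 4.44, 4.23 and 4.87 and then 9.88, 9.56 and 6.05, a rise of 3.98 (SE 0.90, limma adjusted p = 0.0327). APOL6 rose by 2.67, APOL1 by 1.54, the death receptor FAS by 1.12 and the inflammatory caspase CASP4 by 1.10. CXCL9 and CXCL11, which share the receptor of CXCL10, were high on replicates 1 and 2 of 24 h, at 10.30 and 9.84 and at 9.41 and 8.96, and at 4.20 and 4.52 on replicate 3. They differed by 4.71 (SE 1.22, adjusted p = 0.0677) and 3.81 (SE 1.09, adjusted p = 0.106) and were not called. CD274 (PD-L1), which restrains T cells, measured 5.17, 5.79 and 5.74 and then 8.22, 8.25 and 5.67 (adjusted p = 0.287). Without replicate 3 of 24 h, 13 of the 27 were called, among them CXCL9 at 6.67 (adjusted p = 0.000409), CXCL11 at 5.36 (0.00403) and CD274 at 2.67 (0.034). The calls of TNFSF10, APOL6, FAS and CASP4 were lost without any 1 of the 12 h arrays or of replicates 1 and 2 of 24 h (adjusted p from 0.0553 to 0.237), and that of APOL1 without replicate 1 or 3 of 12 h or replicate 1 or 2 of 24 h (0.138 to 0.203).

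How far replicate 3 of 24 h had moved differed between interferon genes. In 83 listed genes whose mean on replicates 1 and 2 lay at least 1 above the 12 h mean, the difference on replicate 3 was a median of 40.6% of that on the other two. In 17 of the 83, replicate 3 was at or below the highest 12 h array. The share was 73.7% for IFIT1, 73.9% for IFIT3 and 72.9% for CXCL10, and 100% for IRF9 and 107% for APOBEC3G. It was 28.7% for RSAD2, 20.5% for MX2, 20.2% for ISG15, 16.1% for GBP2 and 12.0% for CXCL9. Those 17 included GBP5, GBP4, CD274, CD69, CD38, TNFSF13B, APOL3 and IL15RA. These genes were chosen on replicates 1 and 2 alone, which favours a lower replicate 3. The median SD of the 3 arrays of 24 h was 0.91 for the interferon genes that rose, 0.34 for the other rises, 0.21 for the falls and 0.19 for all genes. The medians of the 24 h arrays were 4.118, 4.123 and 4.047, and the array's part in the differences was not tested.

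**Figure D3:**
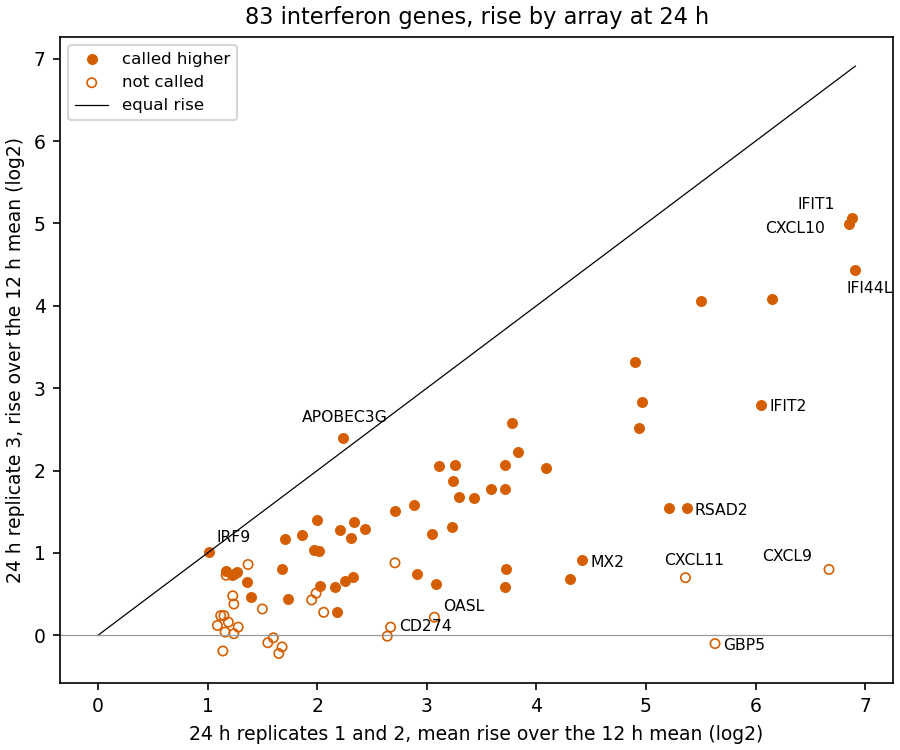
Difference from the 12 h mean on replicate 3 of 24 h (vertical axis, log2) against the mean difference on replicates 1 and 2 (horizontal axis, log2) for the 83 interferon genes that were at least 1 higher on replicates 1 and 2. All but 2 of the 83 points lie below the line of equal values; IFIT1, CXCL10 and IFI44L stay high on replicate 3, whereas GBP5, CXCL9, CXCL11 and CD274 lie much nearer 0.

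Upstream of these genes few transcripts were called. Of 16 interferon genes, 0 were called in limma's test (1 higher and 1 lower at an unadjusted p under 0.05), with a median of -0.11. IFNB1, the gene of interferon beta, measured 2.87, 2.42 and 2.52 at 12 h and 4.34, 4.85 and 2.85 at 24 h, a difference of at least 1.41 (SE 0.37, adjusted p = 0.0729), since its 12 h mean lay below the lower quartile of the arrays. Replicates 1 and 2 lay above all 12 h arrays and replicate 3 among them. Without replicate 3 of 24 h the difference was at least 1.99 and was called (adjusted p = 0.000649), and leaving out any other array gave adjusted p-values of 0.145 to 0.31. The next largest positive difference was 0.36 for IFNA2, and IFNG, the gene of interferon gamma, was at 2.57 to 2.81 and 2.37 to 2.66. The alpha interferon genes are near-copies of each other, and most lay near background.

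Of 9 receptor chains and Janus kinases, 0 were called (4 higher and 0 lower at an unadjusted p under 0.05), with a median of 0.36. The receptor chain IFNAR1 measured 6.75, 7.12 and 7.13 and then 7.32, 7.78 and 7.89, a difference of 0.66 (limma adjusted p = 0.0798), and IFNGR2 differed by 0.94 (adjusted p = 0.127). JAK1 was at 9.69 to 9.86 and 9.80 to 9.98. Of 14 adaptors and kinases of nucleic acid sensing, TASL, an adaptor of endosomal Toll-like receptors, rose by 0.98 from 2.96, 3.07 and 3.02 to 3.93, 4.42 and 3.64 (adjusted p = 0.0144), and 0 fell. The kinase TBK1 (0.20), the transcription factor IRF3 (0.21), STING1 (-0.30) and MAVS (-0.51) were not called. Of 5 other interferon regulatory factor genes, IRF2 rose by 1.96 (SE 0.38, adjusted p = 0.0103), from 7.43, 7.63 and 7.49 to 10.15, 10.00 and 8.28. IRF8 was called too without replicate 3 of 24 h (1.22, adjusted p = 0.0456). The call of TASL was lost without replicate 1 or 3 of 12 h or replicate 1 or 2 of 24 h (0.0565 to 0.0899) and that of IRF2 without replicate 1 of 12 h or replicate 1 or 2 of 24 h (0.0593 to 0.0833).

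Outside the interferon lists the 94 rises were smaller, and 64 of them reached 2-fold. GCA (grancalcin), a calcium-binding protein of leukocytes, measured 3.37, 3.74 and 3.55 and then 6.66, 6.85 and 5.45, a rise of 2.77 (SE 0.45, limma adjusted p = 0.00273). TIMP1, a secreted inhibitor of matrix metalloproteinases, measured 7.13, 6.69 and 7.78 and then 10.51, 9.91 and 9.42, a rise of 2.75 (SE 0.37, adjusted p = 0.000636). MMP13, a collagenase, rose by at least 2.27 (SE 0.19, adjusted p = 2.35e-06) from 2.71, 2.68 and 2.84, near background, to 5.25, 5.32 and 4.46. LGALS1 (galectin-1), a secreted lectin, rose by 2.18 and was not lowest on replicate 3 of 24 h, at 9.45, 8.48 and 8.74. In these 4 genes the arrays of the 2 times did not overlap, which the rule for naming genes required.

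Immune mediators among the rises included LTA (lymphotoxin alpha), a cytokine of the TNF family, at 5.86, 4.87 and 5.87 and then 8.77, 7.87 and 6.91, a rise of 2.32 (SE 0.40, limma adjusted p = 0.00434). The chemokine CCL3 rose by 2.29 (SE 0.37), from 7.51, 6.54 and 7.49 to 10.37, 9.65 and 8.40; it has near-identical copies that its probes may also read. They were the only 2 called among 36 cytokines and chemokines, with a list median of 0.11 (7 higher and 1 lower at an unadjusted p under 0.05). CCL5, a chemokine for T cells, had the largest difference of that list, 3.17, but with values of 9.56, 8.95 and 5.54 at 24 h it missed the threshold (adjusted p = 0.0506). Without replicate 3 of 24 h CCL5 differed by 4.41 (adjusted p = 0.000287), and 4 of the 36 were called. The costimulatory receptor TNFRSF9 (4-1BB) rose by 1.59, the adhesion molecule VCAM1 by 2.13, and IL2RA, a chain of the interleukin 2 receptor, by 1.33. Of 22 TNF and costimulatory genes TNFRSF9 was the only one called, and the list median was 0.07. The calls of TNFRSF9 and VCAM1 were lost without any 1 of the 12 h arrays or of replicates 1 and 2 of 24 h (adjusted p from 0.0804 to 0.238).

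Of 24 subunits and targets of NF-kappaB, a transcription factor of inflammation, 4 rose and 0 fell, with a median of 0.68 (13 and 0 at an unadjusted p under 0.05). BCL2A1, a pro-survival relative of BCL2, rose by 2.09 (SE 0.38, limma adjusted p = 0.0064), from 7.88, 6.95 and 7.84 to 9.81, 9.88 and 9.26. NFKBIA, the inhibitor that NF-kappaB itself induces, rose by 1.50, CFLAR, which blocks caspase 8, by 1.48 and NFKBIZ by 1.13. ICAM1 (1.82, adjusted p = 0.0866) and TNFAIP3 (1.33, adjusted p = 0.0905) were high on replicates 1 and 2 of 24 h and near 12 h on replicate 3. Without that array they differed by 2.64 (adjusted p = 0.000406) and 1.89 (0.00138), and 8 of the 24 were called. Among 24 apoptosis regulators the 2 calls were BCL2A1 and CASP8 (0.91), on opposite sides of the death pathway, with a median of 0.19. The calls of NFKBIA and NFKBIZ were lost without any 1 of the 12 h arrays or of replicates 1 and 2 of 24 h (adjusted p from 0.0549 to 0.171). CFLAR lost its call without replicate 1 or 3 of 12 h or replicate 1 or 2 of 24 h (0.0821 to 0.116), and CASP8 without replicate 2 or 3 of 12 h or replicate 1 or 2 of 24 h (0.0619 to 0.12).

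Several of the 94 genes are known from other work to respond to interferon although the lists used here did not hold them, among them IRF2, VCAM1, the nuclear body genes SP140 and SP110 and the cap methyltransferase CMTR1. SP140 measured 6.97, 6.39 and 7.42 and then 9.20, 9.46 and 8.50, a rise of 2.13 (SE 0.34, limma adjusted p = 0.0025). SP110 rose by 1.85 (SE 0.27) from 7.59, 7.92 and 7.77 to 9.96, 9.76 and 9.11, and CMTR1 by 1.19. The phospholipase PLAAT4 rose by 2.22 (SE 0.45, adjusted p = 0.0163), from 4.48 to 4.68 to values of 7.49, 7.25 and 5.68. The boundary between inside and outside therefore depends on the lists. The call of PLAAT4 was lost without any 1 of the 12 h arrays or of replicates 1 and 2 of 24 h (adjusted p from 0.0531 to 0.122), and that of CMTR1 without replicate 1 or 2 of either time (0.0897 to 0.187).

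Among the 20 largest rises outside the lists were also ARL14 (2.46), a small GTPase of vesicle traffic, the zinc finger gene ZNF280A (2.23), the adaptor SHC4 (1.99), the phosphoprotein PLEK of blood cells (1.93) and TXLNB (1.56). MPEG1, a pore-forming protein of phagocytes and B cells, measured 4.36, 4.07 and 4.76 and then 6.32, 6.43 and 6.82, a rise of 2.13 (SE 0.39, limma adjusted p = 0.00777). S100A4, a calcium-binding protein, rose by 1.57, with 5.74, 4.82 and 6.34 at 24 h, and the antioxidant enzyme NQO1 by 1.42 (SE 0.24, adjusted p = 0.00376), with 5.67, 5.76 and 6.42. These 3 genes were highest on replicate 3 of 24 h, the array that was lowest for most interferon genes. The lysosomal genes CD68 and LIPA rose by 1.29 and 1.28, and OPTN, an autophagy receptor, by 1.56, while the 28 genes of the autophagy and lysosome list held 0 calls. The call of ARL14 was lost without any 1 of the 12 h arrays or of replicates 1 and 2 of 24 h (adjusted p from 0.12 to 0.225). SHC4 lost it without replicate 2 or 3 of 12 h or replicate 1 or 2 of 24 h (0.0518 to 0.0973), and S100A4 without replicate 1 or 3 of either time (0.146 to 0.193).

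CD68 and MPEG1 are also expressed by macrophages, so the marker lists of other cell types were read beside them. The 12 measured monocyte and macrophage markers held 0 calls (1 higher and 1 lower at an unadjusted p under 0.05), and their mean level was 3.54 to 3.69 on the 12 h arrays and 3.70 to 3.88 on the 24 h arrays. CSF1R was at 3.91 to 3.95 and 3.67 to 4.51, and CD14 at 3.47 to 3.72 and 3.33 to 3.53. CLEC7A, a receptor for fungal glucans, had the largest difference of the list, 1.29 (limma adjusted p = 0.054), at 4.01, 4.45 and 3.84 and then 5.04, 5.14 and 5.99. The part of such cells in the rises of CD68 and MPEG1 was not tested. The marker lists of T and NK cells, epithelium, fibroblasts and erythroid cells held 0 calls as well.

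**Figure D4:**
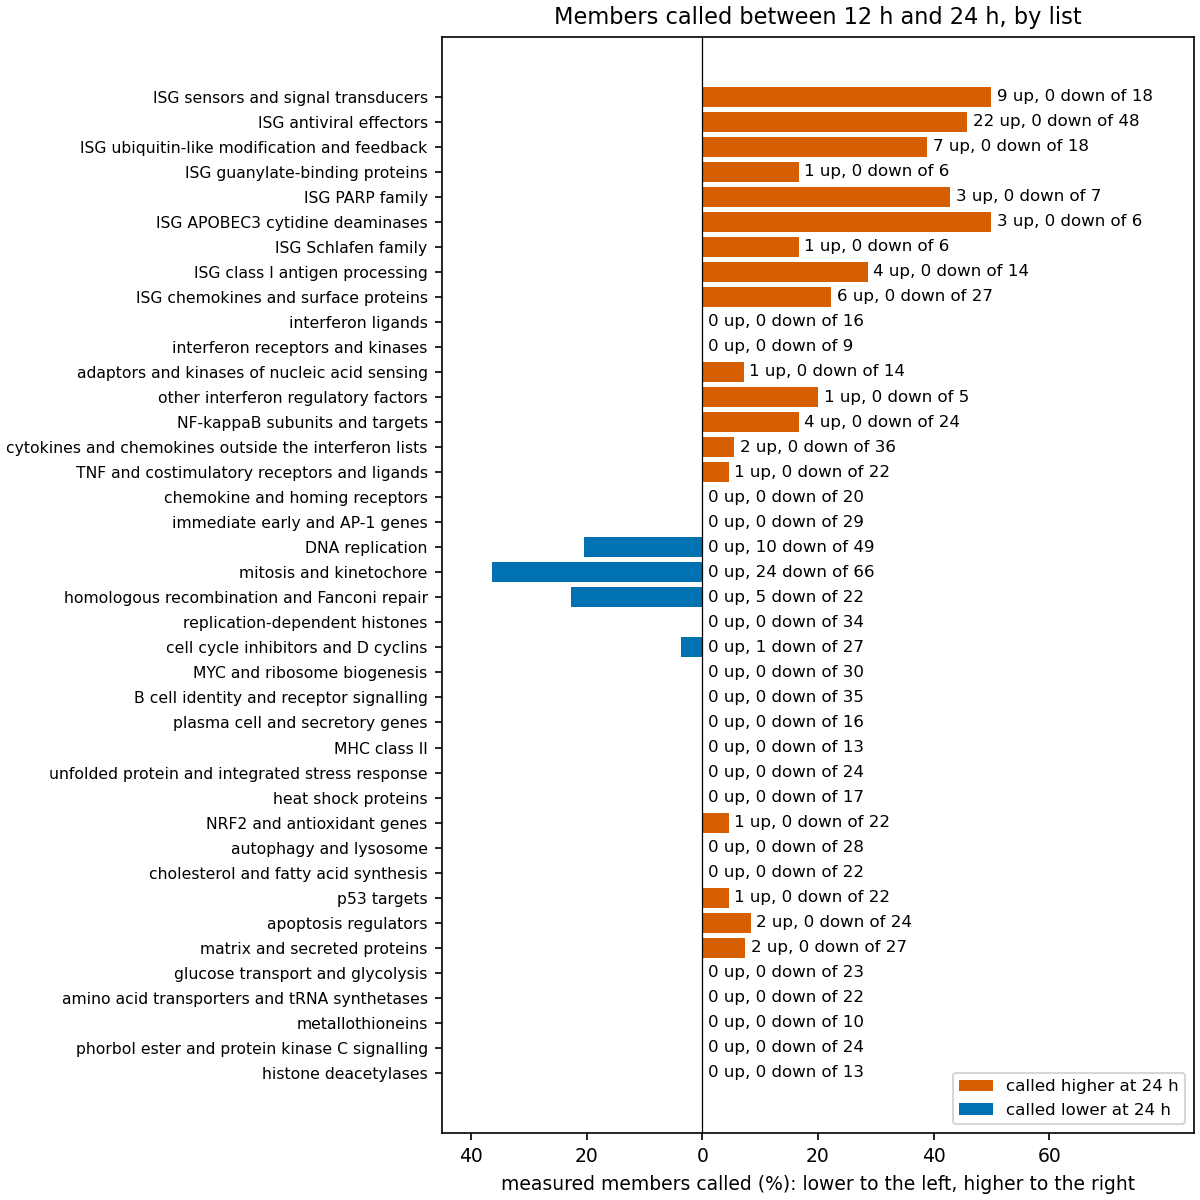
Share of the measured members of each gene list that was called higher (orange, to the right) or lower (blue, to the left) at 24 h than at 12 h, with counts beside the bars. The highest shares of rises are in interferon lists, up to 9 of 18 sensors and 3 of 6 APOBEC3 genes, and the highest shares of falls in mitosis (24 of 66), recombination (5 of 22) and DNA replication (10 of 49).

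Of the 102 genes that fell, 40 were on the division lists and 62 were not. Mitosis and kinetochore genes had 24 falls and 0 rises among 66, with a median of -0.91 (55 and 0 at an unadjusted p under 0.05), and all 66 had a negative difference. With replicate 3 of 24 h left out 19 fell, and FOXM1 (-1.15, limma adjusted p = 0.041) and PTTG1 (-0.77, 0.041) were gained. BIRC5 (survivin), a subunit of the complex that corrects chromosome attachment, measured 7.62, 7.74 and 7.36 and then 5.99, 5.89 and 5.81, a difference of -1.68 (SE 0.26, limma adjusted p = 0.00189). A second, dimmer probe set of BIRC5 differed by -0.87. CDCA2, a phosphatase-targeting protein of chromosomes, measured 6.97, 6.79 and 7.13 and then 5.29, 5.49 and 5.12, a difference of -1.67 (SE 0.14, adjusted p = 3.17e-06). In both genes the 3 arrays of 24 h lay close together and under all of 12 h.

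The motor protein genes KIF20A (-1.61), KIF4A (-1.48) and KIF15 (-1.40) fell, as did the kinetochore genes CENPI (-1.46) and SPC25 (-1.37). KIF4A, a chromosome-bound motor, was at 7.31, 7.66 and 7.87 and then 6.37, 6.40 and 5.63 (SE 0.25, limma adjusted p = 0.00406). The spindle gene SPAG5 (-1.67), the mitotic kinase gene NEK2 (-1.69), the kinase gene PBK (-1.57), the mitotic helicase gene ERCC6L (-1.55), SHCBP1 (-1.44), the phosphatase inhibitor gene CIP2A (-1.42) and CKAP2L (-1.38) fell too. MKI67, the proliferation marker, measured 9.44, 9.22 and 9.31 and then 8.46, 8.30 and 7.71 (-1.17). The calls of KIF15 and NEK2 were lost without replicate 1 or 3 of either time (adjusted p from 0.0528 to 0.138). KIF20A lost it without replicate 1 or 3 of 12 h or replicate 3 of 24 h (0.0526 to 0.0916), CKAP2L without any 12 h array or replicate 2 or 3 of 24 h (0.0635 to 0.14) and PBK without replicate 1 of either time (0.075 and 0.0833). CENPI lost its call without any 1 of the 6 arrays (0.0545 to 0.136).

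In DNA replication, 10 of 49 genes fell and 0 rose, with a median of -0.65 (28 and 0 at an unadjusted p under 0.05). With replicate 3 of 24 h left out 9 fell, and MCM8 was gained (-1.06, limma adjusted p = 0.0203). DNA2, a nuclease and helicase that trims replication intermediates, averaged 7.07 ± 0.06 (SD, n = 3) at 12 h and measured 5.18, 5.64 and 5.25 at 24 h, a difference of -1.71 (SE 0.20, limma adjusted p = 0.000161). PCLAF, which binds the sliding clamp PCNA, differed by -1.59, GINS2 of the replicative helicase by -1.37 and RFC3 of the clamp loader by -1.28. A second probe set of PCLAF differed by -0.57, and with the mean of both its adjusted p was 0.0505. Among 22 genes of homologous recombination and Fanconi repair, 5 fell and 0 rose, with a median of -0.65. EXO1, an exonuclease of repair, measured 9.09, 8.73 and 9.08 and then 7.13, 7.47 and 6.32, a difference of -1.99 (SE 0.37, adjusted p = 0.00858), and RAD54B, RAD51AP1 and HELLS differed by -1.52, -1.27 and -1.10. The transcription factor MYBL2, which drives mitotic genes, fell by 1.20 on the log2 scale. PCLAF and RFC3 lost their calls without replicate 1 or 3 of 12 h or replicate 1 or 2 of 24 h (0.0529 to 0.0967), HELLS without replicate 2 of 12 h or replicate 1 of 24 h (0.0518 and 0.0652), GINS2 without replicate 3 of 12 h (0.0659) and EXO1 without replicate 1 of 12 h (0.0512).

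Motifs known from cell cycle promoters were counted in the genes that fell, with no test. CCAAT, on either strand, was in 49 of the 84 with a sequence (58.3%), against 4904 of 14237 measured genes (34.4%), and TTTGAA, the element known as CHR in mitotic genes, in 22 (26.2%) against 1506 (10.6%). Both were present in 16 of 84 (19.0%), against 582 of 14237 (4.09%). The E2F motifs TTTGGCGC or TTTCCCGC were in 7 (8.33%), against 372 (2.61%). Stretches of 3 falling genes that hold both CCAAT and TTTGAA are shown, with matches in capitals, from RefSeq on GRCh38.p14. They have the largest falls among genes whose matches lie close enough together to print. ERCC6L (-1.55), CKAP2L (-1.38) and SPC25 (-1.37) also hold both and were passed over for length. The spacing shown was thus selected and need not be typical. KIF4A lies at chrX:70290026-70290095 (+ strand), PRR11 at chr17:59155593-59155745 (+ strand) and CDC20 at chr1:43358783-43358950 (+ strand). The genes differed by -1.48, -1.29 and -1.18, and the call of CDC20, the activator of mitotic exit, was lost without any 1 of the 6 arrays (limma adjusted p from 0.0713 to 0.187).
KIF4A: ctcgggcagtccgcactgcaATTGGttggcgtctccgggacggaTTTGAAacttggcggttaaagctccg
PRR11: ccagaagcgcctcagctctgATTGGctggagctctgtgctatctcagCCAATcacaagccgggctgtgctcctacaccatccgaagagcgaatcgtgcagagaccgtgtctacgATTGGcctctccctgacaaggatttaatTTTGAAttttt
CDC20: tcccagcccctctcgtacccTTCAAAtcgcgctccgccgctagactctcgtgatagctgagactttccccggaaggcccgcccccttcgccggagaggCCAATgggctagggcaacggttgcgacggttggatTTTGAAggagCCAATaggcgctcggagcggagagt

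The largest falls of all were of small nucleolar RNAs, which guide the modification of ribosomal RNA. SNORD14E measured 6.07, 5.97 and 6.32 and then 3.32, 3.48 and 4.48, a difference of -2.36 (SE 0.41, limma adjusted p = 0.00507), and SNORD14C measured 8.83, 8.26 and 8.85 and then 6.14, 6.24 and 7.26, a difference of -2.10 (SE 0.35, adjusted p = 0.00376). Both are copies of 1 family in introns of HSPA8, so their probes may read each other, and the host gene was at 11.43 to 11.69 and 11.24 to 11.39 (-0.21, not called). SNORD28 (-1.32) and SNORA10 (-0.75) fell as well. These 4 were the falls among 175 measured small nucleolar RNAs, whose median was -0.05, and 0 rose. The call of SNORD28 was lost without any array except replicate 2 of 12 h (0.0529 to 0.185), and that of SNORA10 without any 1 of the 6 arrays (0.0729 to 0.212).

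Many gene groups held 0 calls in limma's test in this interval. They include 30 genes of MYC and ribosome biogenesis (median -0.06, 1 at an unadjusted p under 0.05), 34 replication-dependent histones (0.01, 1), 35 B-cell genes (0.19, 6), 13 MHC class II genes (0.42, 3), 24 of the unfolded protein response (0.05, 8) and 29 immediate early genes (0.14, 5). Cholesterol and fatty acid synthesis (22 genes, 0.06, 3), glycolysis (23, 0.35, 3), protein kinase C signalling (24, 0.14, 6), histone deacetylases (13, 0.06, 1) and metallothioneins (10, 0.33, 4) held none either. Over all 18417 genes, 2039 lay under that unadjusted threshold. MYC, whose translocation marks Burkitt lymphoma, measured 5.03, 4.88 and 5.21 and then 5.66, 5.60 and 5.39 (0.51, adjusted p = 0.332). MT2A, a metal-binding protein, was at 9.97 to 10.29 and 10.98 to 11.67 without overlap (1.22, adjusted p = 0.0658). HSPA1L, a heat shock protein gene, differed by 1.02 (adjusted p = 0.0528). Some of these lists held calls without replicate 3 of 24 h. They were the histone H2BC5 (2.12, adjusted p = 4.77e-05), the metallothioneins MT2A (1.42, 0.0396) and MT1G (0.96, 0.0134), the immediate early genes DUSP1 (1.74, 0.0279) and JUNB (1.50, 0.00173), HERPUD1 of the unfolded protein response (1.19, 0.0102) and the B-cell genes GCSAM (1.15, 0.0185) and BCL6 (1.07, 0.0474).

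The neighbouring intervals share arrays with this one, so their values are given only side by side. Over the 56 interferon genes that rose, the mean level was 4.98 to 5.28 on the 9 arrays from 0 h to 8 h, 5.21, 5.12 and 5.32 at 12 h, 8.55, 8.35 and 6.86 at 24 h and 8.32, 8.44 and 7.55 at 48 h. Replicate 3 was thus the lowest array at 48 h too. Between 8 h and 12 h limma called 0 of 18417 genes (0.0%, with 1221 at an unadjusted p under 0.05), and between 24 h and 48 h it called 74 (0.402%), 13 higher (0.0706%) and 61 lower (0.331%). In both of those intervals 0 of the 56 were called, with medians of -0.03 and 0.07 (0 and 8 at an unadjusted p under 0.05). The 94 other rises averaged 5.46, 5.38 and 5.61 at 12 h, 6.99, 6.87 and 6.51 at 24 h and 6.58, 6.89 and 6.68 at 48 h. From 24 h to 48 h MMP13 rose again, to a mean of 7.39, while SLC18B1 and HGSNAT fell. The 102 falling genes averaged 7.59, 7.47 and 7.68, then 6.37, 6.57 and 6.37, and 5.79, 5.92 and 5.66 at 48 h. Of these 102, 35 were called lower again between 24 h and 48 h (median -0.73), among them BIRC5, at 4.51 at 48 h, CCNB1, MKI67 and TOP2A. The call of CCNB1 between 12 h and 24 h was lost without any 1 of the 6 arrays (limma adjusted p from 0.0643 to 0.203). That of TOP2A was lost without replicate 1 or 3 of either time (0.0705 to 0.114).

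**Figure D5:**
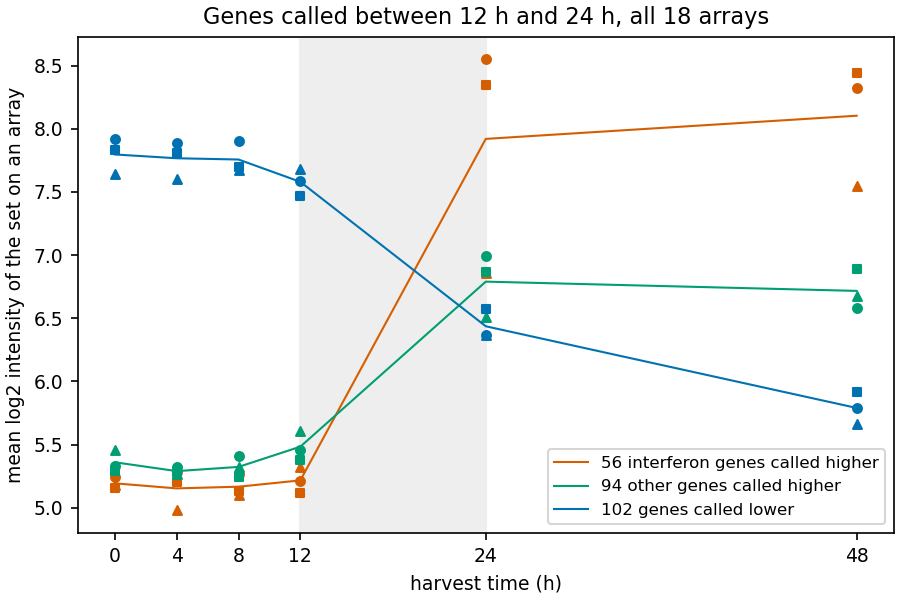
Mean log2 intensity of 3 gene sets on each of the 18 arrays (circles, squares and triangles for replicates 1, 2 and 3; lines through the time means) against harvest time in hours, with the 12 h to 24 h interval shaded. The interferon genes (orange) stand near 5 until 12 h and at 6.86 to 8.55 at 24 h, the other rises (green) level off after 24 h, and the falling genes (blue) go on down to 5.66 to 5.92 at 48 h; the sets were chosen on the shaded interval.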

How the data were processed

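RNA of Raji cells was measured on Affymetrix gene expression arrays, 3 per harvest time. The values are log2 intensities deposited by the authors; the log base follows from their range, and software, background correction and normalization are not given in the sources used here. Of 33297 probe sets, 19460 named 1 gene through the platform's gene table and gave 18417 genes, 769 of them with more than 1 probe set. With limma 3.58.1 under R 4.3.3, all 18 arrays entered a single model whose groups were the 6 harvest times (12 residual and 5.58 prior degrees of freedom), and p-values were adjusted by Benjamini-Hochberg over all genes. On data simulated for the 24 h minus 12 h comparison over 18417 genes, 75 of 100 changes of 1 and 98 of 100 of 2 (log2) were recovered with 6 false calls. In the simulation each gene had the same spread at all times and its 24 h arrays shifted equally. These figures therefore do not cover genes that were uneven at 24 h, as many interferon genes were. The labels call the arrays biological replicates without naming separate cultures, so p-values measure the spread between arrays and not between known cultures. That spread is pooled over the 6 times and is not that of 12 h and 24 h alone. The interferon genes that rose had a median SD of 0.91 at 24 h and 0.24 at 12 h. For genes uneven at 24 h the pooled spread can be the smaller, and the SE too small.

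Genes were named by rule among the called genes whose arrays of the 2 times did not overlap. They were the 15 largest rises on the interferon lists, the 20 largest rises and falls outside them, and up to 4 members per list. For lists with few calls those of smallest p were added, with or without overlap. Other genes named, including list members that spell out a count or a value beside it, were picked with their values in view. The comparison, the lists and the rule were chosen with earlier results of these data known. Promoters came from the RefSeq table; for 3738 genes with more than 1 window the first was used. The alternatives tried were quantile normalization, centring, a filter on dim genes, the mean of probe sets, fewer arrays, a replicate block, array weights, the array spread as covariate, trend and robust moderation, and leaving out each array. Python 3.11.15, pandas 2.3.3 and matplotlib 3.10.9 made tables and plots. Some genes are not reported here.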

Additional observations from a re-analysis of the deposited data

Results flagged for a closer look

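Some probe sets left out of the comparison were also called between 12 h and 24 h. In a limma fit over all 33297 probe sets, 11 of the 1754 that name several genes were called higher and 1 lower, with differences up to 3.25. Of the 12083 that were not named here, 12 were called higher and 1 lower, with differences from -2.33 to 3.22.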

How the results depend on the processing

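The count of called genes was 252 as deposited, 331 after quantile normalization, 296 with each array centred on its median, 274 without the dimmest 25% of genes, 254 with the mean of probe sets, 295 with only the 6 arrays, 273 with the interquartile range as covariate, 224 with trend and robust moderation and 186 at 2-fold. With array weights, where replicate 3 of 24 h had a weight of 0.402, it was 1099, with 97 interferon genes and 1002 others, 638 higher and 364 lower. Quantile normalization gave 154 falls. The share of calls that were rises was 59.5% as deposited, 49.5% with the interquartile range as covariate and 75.2% without replicate 3 of 24 h. Leaving out 1 array gave 105 to 335 calls, with 30 to 75 interferon genes and 75 to 260 others, 34 to 177 higher and 41 to 83 lower. In the 6-array fit 43 of the 56 interferon calls, 66 of the 94 other rises and 81 of the 102 falls were kept; the calls of MX2 (adjusted p = 0.0785), ARL14 (0.0812), VCAM1 (0.114), IRF1 (0.077), ISG15 (0.0846), GBP2 (0.104), TAP1 (0.0676), PSMB9 (0.0638), APOL6 (0.102), SHC4 (0.0632), S100A4 (0.0597), KIF15 (0.0567), NFKBIZ (0.0672) and CASP8 (0.0587) were lost, and the cause was not tested. Same-numbered arrays of 12 h and 24 h deviated from their group means with correlations of -0.0314, -0.243 and -0.104, so the numbers were not taken to pair them. With the number as a replicate block 306 genes were called, 58 of them interferon genes, FAS lost its call (adjusted p = 0.0533), and IFNB1 (0.036), IFNAR1 (0.0372), HSPA1L (0.032) and GBP3 (0.0258) were called. Over 138 named genes and their alternatives, 1693 of 1929 values kept their direction and side of the threshold, 67 became called, 169 lost the call and 0 reversed. Trend and robust moderation was not part of that count. It kept 50 of the 56 interferon calls, 81 of the 94 other rises and 82 of the 102 falls. Dim genes near background limit what can be seen.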
